A study of Capra hircus with 6 samples.

Results

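The genes followed here mark the cells that build the small vessels of the brain. Of 10 genes picked by name, 6 mark the endothelium of the blood-brain barrier (CLDN5, PECAM1, VWF, FLT1, SLC2A1 and MFSD2A) and 4 mark the mural cells around it (PDGFRB, RGS5, ACTA2 and MYH11). The rule that picked them names genes and sets no threshold on a value, but it was written with earlier results of these data known. In the mRNA table, which held 20225 genes, 9 of the 10 were matched by NCBI gene identifier. CLDN5, the main tight junction claudin of brain endothelium, matched no transcript and was not analysed here, so the endothelium was measured with 5 genes.

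The libraries came from the hypothalamus of female Anhuai goats, 3 prepubertal and 3 pubertal, with 1 library per goat and all animals kept on the same farm. Prepubertal goats were aged 2.5 to 3.0 months. Pubertal goats were aged 4.5 to 5.0 months and were killed in the late follicular phase. No genetic change and no treatment other than anaesthesia was given for either stage, and age, body size and ovarian phase cannot be told apart from puberty. Bulk hypothalamic tissue was used, so a difference in vessel cells and a difference in RNA per vessel cell cannot be told apart in any value given here.

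Brain capillaries are lined by endothelial cells sealed by tight junctions, which take up nutrients through dedicated transporters such as the glucose carrier SLC2A1. Pericytes share the basement membrane of these capillaries and are recruited by PDGF-B acting on PDGFRB, whereas arterioles carry contractile smooth muscle with smooth muscle actin (ACTA2) and smooth muscle myosin (MYH11). At the base of the hypothalamus, in the median eminence, the barrier is replaced by permeable fenestrated capillaries through which GnRH reaches the pituitary portal blood.

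Values are FPKM, fragment numbers corrected for transcript length and library size, summed over the transcripts of a gene. How many reads stood behind each value is unknown, since no counts were used. The library medians of log2(FPKM + 1), over the 14081 genes whose mean reached 1 FPKM, lay between 3.80 and 3.83 in the 6 libraries. Pubertal replicate 3 stood apart. In it 50 of these genes were more than 4-fold above the highest of the other 5 libraries, against 0 to 3 genes in each other library. MYH11 was among the 50. Of the marker lists, 5 of 13 contractile smooth muscle genes, 2 of 9 matched meningeal fibroblast genes and 2 of 6 choroid plexus genes were that far above the other libraries in it, and 3 of 6 matched anterior pituitary genes also were, at 0.539 to 7.79 FPKM. So were the blood genes ALAS2 and PPBP, at 0.482 FPKM or less, and the transporter SLC22A8 of the barrier list, at 5.68 FPKM. TTR, the thyroxine carrier of choroid plexus, had 309 FPKM in it and 1.14 to 53.4 FPKM elsewhere. The stage differences of the 9 genes are therefore given with and without this library, as are those of the other genes named with a log2 fold change.

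All 9 genes were detected in all 6 libraries. SLC2A1 had the highest mean, 64.7 ± 7.0 FPKM (SD, n = 6 libraries), above that of 90.2% of the 16397 genes tested. RGS5, a regulator of G protein signalling found in pericytes, followed with 63.6 ± 16.7 FPKM (SD, n = 6). SLC2A1 was above RGS5 in 5 of 6 libraries, by a mean of only 0.05 ± 0.23 (SD) on the log2(FPKM + 1) scale, so these neighbours did not differ beyond their spread. ACTA2 had 23.7 ± 23.1 FPKM (SD, n = 6), an SD nearly as large as its mean. PECAM1, an adhesion molecule of endothelial junctions, had 12.5 ± 2.89 FPKM (SD, n = 6). PDGFRB had 12.1 ± 3.20 FPKM and MFSD2A, the barrier transporter of lysophospholipids carrying omega-3 fatty acids, had 11.9 ± 2.1 FPKM (SD, n = 6 each). These last 3 levels did not differ beyond their spread, since PECAM1 was above PDGFRB in 3 of 6 libraries and PDGFRB above MFSD2A in 2 of 6. FLT1, a VEGF receptor that acts largely as a decoy, had 8.42 ± 0.862 FPKM (SD, n = 6) and lay below MFSD2A in 6 of 6 libraries. MYH11 had 6.88 ± 9.58 FPKM and VWF, the clotting factor stored by endothelial cells, had 5.22 ± 1.67 FPKM (SD, n = 6 each). The mean of MYH11 was the higher, but MYH11 was above VWF in 1 of 6 libraries, pubertal replicate 3.

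**Figure D1:**
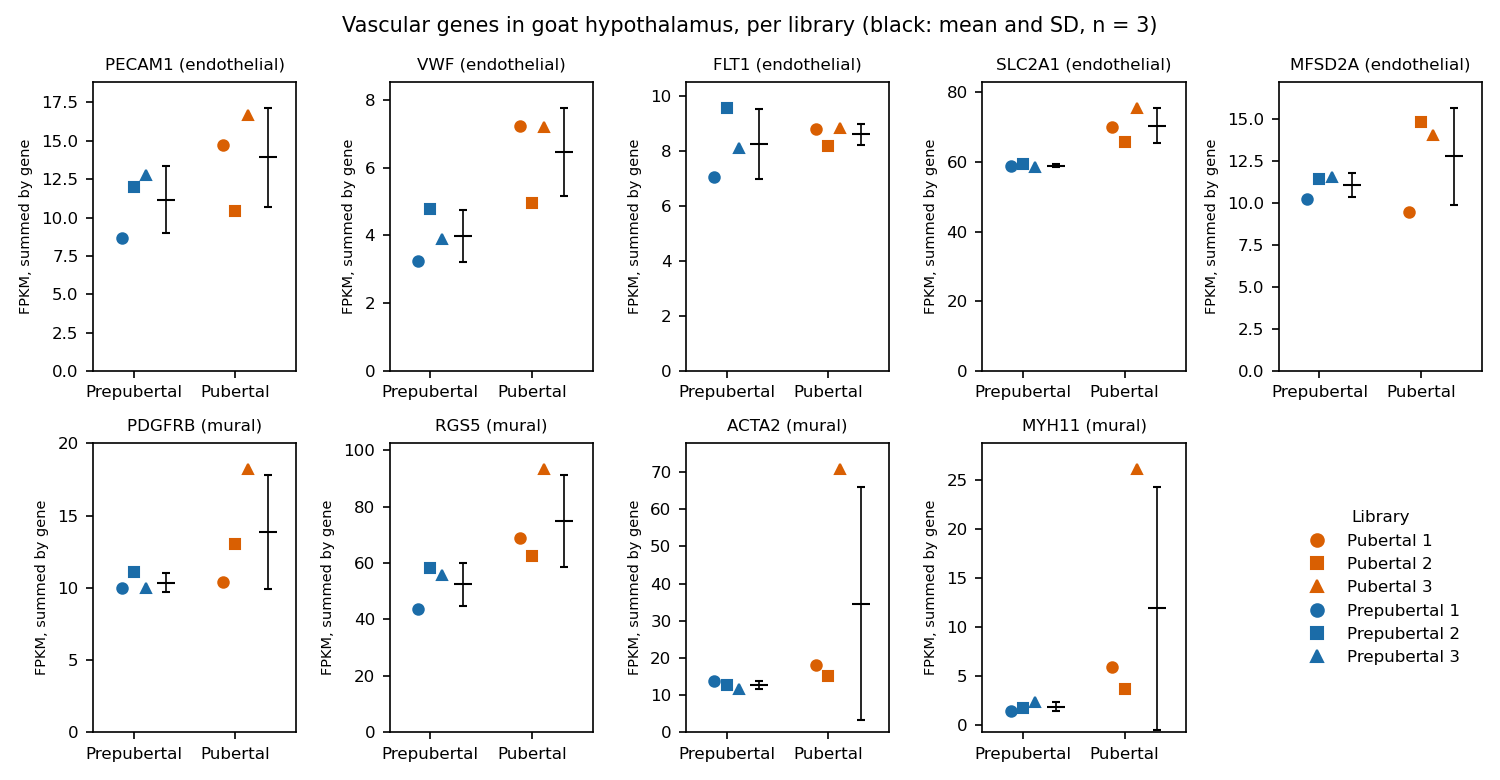
FPKM summed by gene (vertical axes, each with its own linear scale) for 9 vascular genes in 3 prepubertal (blue) and 3 pubertal (orange) libraries. Symbols mark the replicate, and black bars give the mean and SD of each stage. In ACTA2 and MYH11 the highest point is pubertal replicate 3, at 70.7 and 26.2 FPKM.

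The first question was whether the endothelium differed between the stages. VWF had 7.24, 4.96 and 7.19 FPKM in pubertal replicates 1, 2 and 3, and 3.24, 4.77 and 3.90 FPKM in prepubertal replicates 1, 2 and 3. All pubertal values lay above all prepubertal ones, although pubertal replicate 2 and prepubertal replicate 2 nearly met. The stage means were 6.46 ± 1.30 and 3.97 ± 0.769 FPKM (SD, n = 3 each). On the log2 scale the difference was 0.58 (SE, the standard error, 0.17; limma adjusted p = 0.795), and 0.51 without pubertal replicate 3.

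SLC2A1 had 70.0, 65.6 and 75.5 FPKM in the pubertal and 58.9, 59.3 and 58.6 FPKM in the prepubertal libraries. The stages did not overlap, and the prepubertal libraries lay close together. Its log2 fold change was 0.25 (SE 0.08, adjusted p = 0.832 from limma) and 0.20 without pubertal replicate 3, and the ratio of the stage means was 1.19. SLC2A1 is also made by astrocytes, and VWF is also carried by platelets. Of the 9 blood genes listed, 6 matched, and HBB, HBA1 and PF4 did not. The summed level of the matched genes was 14.6 to 16.9 FPKM in pubertal and 12.7 to 14.7 FPKM in prepubertal libraries. Most of that sum was the leukocyte gene PTPRC, with 10.9 to 13.1 and 8.51 to 11.3 FPKM. Among the matched genes the erythroid genes ALAS2 and SLC4A1 were at or under 0.0595 FPKM in every library, whereas AHSP had 2.05 to 3.54 FPKM. The platelet gene PPBP was listed at 0 in 5 of 6 libraries, whereas ITGA2B had 0.851 to 1.64 FPKM in all 6. The part of blood in the values of SLC2A1 and VWF was not tested.

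PECAM1 had 14.7, 10.4 and 16.7 FPKM in the pubertal and 8.68, 12 and 12.8 FPKM in the prepubertal libraries. FLT1 had 8.79, 8.17 and 8.85 FPKM against 7.04, 9.57 and 8.12 FPKM. MFSD2A had 9.45, 14.8 and 14 FPKM against 10.2, 11.4 and 11.5 FPKM. In these 3 genes the stages overlapped, with the lowest value of MFSD2A in a pubertal goat. The log2 fold changes were 0.29 (95% interval -0.16 to 0.73) for PECAM1, 0.06 (-0.22 to 0.35) for FLT1 and 0.17 (-0.20 to 0.55) for MFSD2A, with adjusted p from limma of 0.962, 0.978 and 0.962. Without pubertal replicate 3 they were 0.15, 0.04 and 0.10.

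The second question was whether the mural cells differed. MYH11 had 5.86, 3.70 and 26.2 FPKM in pubertal replicates 1, 2 and 3 and 1.45, 1.74 and 2.35 FPKM in the prepubertal libraries. Every pubertal goat was above every prepubertal goat, and pubertal replicate 3 stood far above the rest, at 11.1 times the median of the other 5. The log2 fold change was 1.76 (SE 0.56, adjusted p = 0.808 from limma). Without pubertal replicate 3 it was 1.01 (SE 0.21, adjusted p = 0.473), and the ratio of the stage means went from 6.44 to 2.59.

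ACTA2 had 18.0, 15.2 and 70.7 FPKM in the pubertal and 13.7, 12.8 and 11.6 FPKM in the prepubertal libraries. The stages did not overlap, but most of the difference came from pubertal replicate 3. The log2 fold change was 1.03 (SE 0.49, adjusted p = 0.962 from limma), and 0.36 (SE 0.13, adjusted p = 1) without that library. ACTA2 is nearly identical in sequence to the other actins, so reads shared among them make its level uncertain.

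RGS5 had 68.7, 62.6 and 93.2 FPKM in the pubertal and 43.6, 58.1 and 55.6 FPKM in the prepubertal libraries, again without overlap. Its log2 fold change was 0.50 (SE 0.17, adjusted p = 0.849 from limma), and 0.33 (adjusted p = 1) without pubertal replicate 3. PDGFRB, the receptor through which pericytes are recruited, had 10.4, 13.0 and 18.2 FPKM against 9.99 to 11.1 FPKM in the prepubertal libraries. Pubertal replicate 1 lay among the prepubertal libraries, so the stages overlapped. Its log2 fold change of 0.35 (95% interval -0.06 to 0.77, adjusted p = 0.962) was 0.15 without pubertal replicate 3.

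None of the 9 genes had an adjusted p under 0.05 in limma. The same held for all 16397 genes, of which 0 (0%) passed and 846 (5.16%) had an unadjusted p under 0.05. All 9 log2 fold changes were above 0, where 49.8% of all genes were. The median over the 9 genes was 0.35, and 0.20 without pubertal replicate 3, where the median of all genes was within 0.01 of 0. An unadjusted p under 0.05 with a higher pubertal level was found for VWF, SLC2A1, RGS5 and MYH11, 4 of 9 genes, against 3.51% of all genes. None of the 9 had one with a lower level, against 1.65% of all genes. The stages did not overlap, with pubertal higher, in these 4 and ACTA2, 5 of 9 genes, against 5.91% of all genes, and in none was pubertal lower, against 3.84%. For each of these 5 the exact two-sided permutation test gave p = 0.1, the smallest that 3 against 3 libraries allow. Without pubertal replicate 3 the same 5 genes did not overlap, where 8.50% of all genes were higher and 6.68% lower without overlap, and all 9 log2 fold changes were again above 0, as were 51.3% of all genes. An unadjusted limma p under 0.05 was then found for VWF, RGS5, ACTA2 and MYH11 and no longer for SLC2A1, where 2.69% of all genes had one with a higher and 1.34% with a lower pubertal level (4.03% in either direction). No gene passed the adjusted threshold (0%). Prepubertal replicate 1 had the lowest value of PECAM1, VWF, FLT1, PDGFRB, RGS5 and MYH11. Without it VWF and MYH11 were left, 2 of 9. RGS5 then had an unadjusted limma p of 0.0672, and the log2 fold change of FLT1 was -0.03. Over all genes, 338 were then higher and 164 lower at an unadjusted p under 0.05, against 575 and 271 with all 6 libraries. The 9 genes were measured in the same 6 goats and are not independent of each other.

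**Figure D2:**
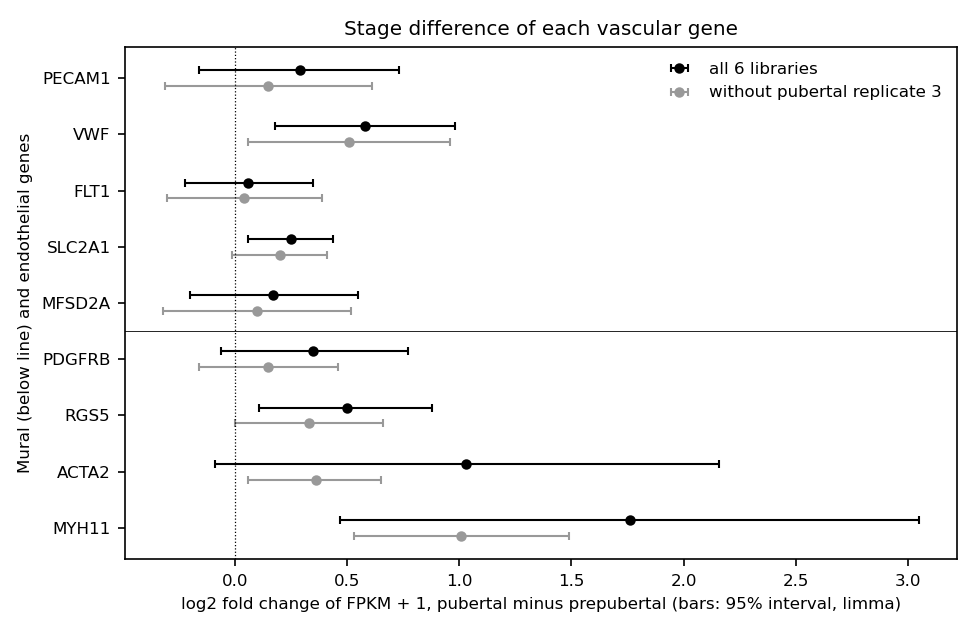
Log2 fold change of FPKM + 1 (horizontal axis, pubertal minus prepubertal) of each vascular gene with its 95% interval from limma, for all 6 libraries (black) and without pubertal replicate 3 (grey). All 9 points lie right of 0, and those of ACTA2 and MYH11 go from 1.03 and 1.76 to 0.36 and 1.01 without that library.

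The endothelial and mural genes were then set side by side within each library. The mean log2(FPKM + 1) of the 5 endothelial genes was 3.99 ± 0.13 in pubertal and 3.72 ± 0.15 in prepubertal goats (SD, n = 3 each). For the 4 mural genes it was 4.54 ± 0.78 and 3.63 ± 0.09 (SD, n = 3 each). In prepubertal replicates 1, 2 and 3 the mural mean minus the endothelial mean was -0.02, -0.15 and -0.09, and in pubertal replicates 1, 2 and 3 it was 0.20, 0.15 and 1.31. On this scale the mural genes were slightly below the endothelial genes in each prepubertal library and above them in each pubertal library. Summed FPKM gave another order in pubertal replicates 1 and 2, with 103 and 94.5 FPKM for the mural and 110.2 and 104 FPKM for the endothelial genes. By that sum the mural genes were the higher in pubertal replicate 3, at 208 against 122 FPKM, and in no other library. The stage difference of the gap in mean log2(FPKM + 1) was 0.64, and 0.26 without pubertal replicate 3. With only the most abundant transcript of each gene, the gap over all libraries was 0.43 in place of 0.23, and its stage difference stayed 0.64. The prepubertal mean gap was then above 0, so the order of the classes in prepubertal goats depends on the setting. These means are descriptions over chosen genes, to which no test was applied.

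Within the mural genes the mean of the smooth muscle pair was below that of the pericyte pair in every library but pubertal replicate 3. The single genes did not divide this way, since ACTA2 was above PDGFRB in every library. The mean log2(FPKM + 1) of ACTA2 and MYH11 was 4.03 ± 1.25 in the pubertal and 2.64 ± 0.06 in the prepubertal libraries (SD, n = 3 each), while PDGFRB and RGS5 had 5.04 ± 0.32 and 4.62 ± 0.14 (SD, n = 3 each). With pubertal replicate 3 left out, the stage difference of the smooth muscle pair went from 1.40 to 0.68 and that of the pericyte pair from 0.42 to 0.24. By gene it was then 1.01 for MYH11, 0.36 for ACTA2, 0.33 for RGS5 and 0.15 for PDGFRB, so ACTA2 was close to RGS5. MYH11 amounted to 8.53%, 5.91% and 28.1% of the FPKM of RGS5 in pubertal replicates 1, 2 and 3 and to 3.34%, 3.0% and 4.23% in the prepubertal libraries, without overlap. ACTA2 amounted to 26.1%, 24.3% and 75.8% of RGS5 in the pubertal and 31.5%, 22.1% and 20.9% in the prepubertal libraries. For ACTA2 the stages overlapped in this ratio, and without pubertal replicate 3 its means were 25.2% and 24.8%.

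**Figure D3:**
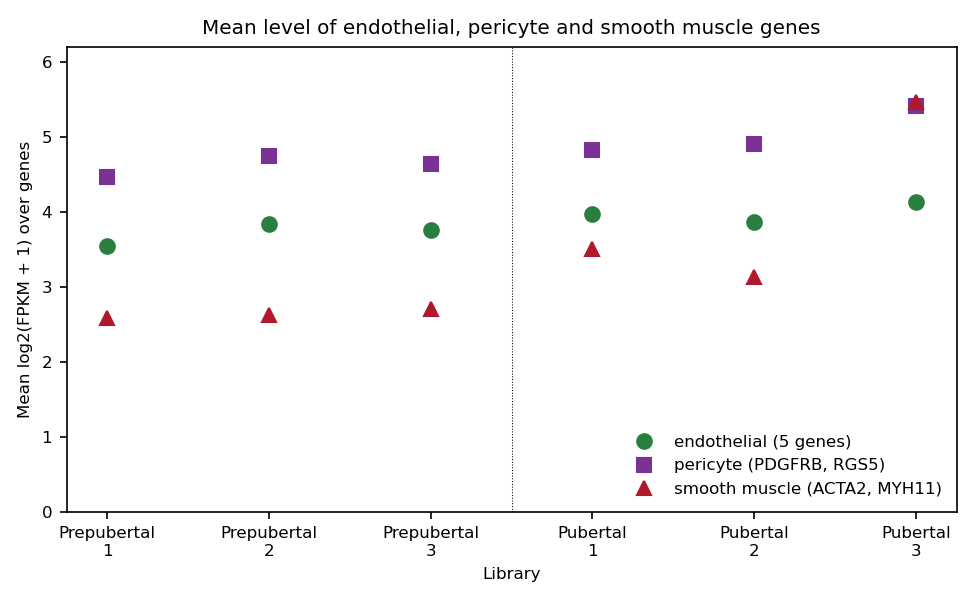
Mean log2(FPKM + 1) (vertical axis) of 5 endothelial genes (green circles), the pericyte genes PDGFRB and RGS5 (purple squares) and the smooth muscle genes ACTA2 and MYH11 (red triangles) in each library (horizontal axis). The smooth muscle mean is the lowest in 5 libraries, and in pubertal replicate 3, at 5.46, it meets the pericyte mean of 5.41.

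Only MFSD2A and PECAM1 had more than 1 transcript. Of the 3 transcripts of MFSD2A, XM_005678650.2 made up 59.9% to 75.0% of the gene in each library. XM_013962953.1 was low, with 1.57, 1.18 and 1.24 FPKM in the pubertal and 0.402, 0.459 and 0.684 FPKM in the prepubertal libraries. Its stages did not overlap, in contrast to the gene as a whole. The share of all transcripts without overlap is not known here, so this cannot be set against a background. XM_005678651.2 had 0.970, 3.84 and 3.31 FPKM against 3.67, 2.39 and 3.23 FPKM. Pubertal replicate 1 was its lowest library and also had the lowest sum of the gene. Of the 6 transcripts of PECAM1, XM_013972406.1 made up 55.8% to 87.3% of the gene. It had 11.2, 7.86 and 9.53 FPKM in the pubertal and 7.58, 8.29 and 7.13 FPKM in the prepubertal libraries. The share of transcripts that overlap in most of their sequence is an estimate of Cufflinks, and its error is not known here.

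Across the 6 libraries the 4 mural genes followed each other, with Pearson r of log2(FPKM + 1) between 0.84 and 0.96 in 6 pairs. Without pubertal replicate 3 the same pairs ran from 0.25 to 0.85. RGS5 and MYH11 kept an r of 0.85, whereas PDGFRB and MYH11 went from 0.87 to 0.28. The 5 endothelial genes were looser, from 0.13 to 0.91 in 10 pairs, with MFSD2A at 0.35 or less with each of the other 4. Without pubertal replicate 3 these pairs ran from -0.29 to 0.88, with a median of 0.36, and MFSD2A was at 0.04 or less. Between the classes, 20 pairs ran from 0.27 to 0.94, and from -0.20 to 0.95 without pubertal replicate 3. Without that library their median was 0.50, as was that of the mural pairs. VWF followed RGS5 with an r of 0.91, and 0.92 without pubertal replicate 3. SLC2A1 followed MYH11 with an r of 0.94, and 0.95 without it. Among the genes with a mean of at least 1 FPKM, those most like PDGFRB were JUN (r = 0.998), SLC18A2 (0.997) and DAG1 (0.996), and those most like MYH11 were ALDH1A1 (0.996), COL13A1 (0.994) and FHOD1 (0.994). These are descriptions over 6 libraries of 2 stages, in which pubertal replicate 3 weighs heavily.

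Other endothelial genes were read from lists. Of 19 genes of endothelial identity, 18 matched and were tested. Of these, 2 had an unadjusted p under 0.05 and a higher pubertal level, against 3.51% of all genes, and none a lower one, against 1.65%. The median log2 fold change was 0.11, and 0.09 without pubertal replicate 3. PTPRB, a phosphatase that restrains TIE2 and VE-cadherin signalling, had 5.78, 5.50 and 7.42 FPKM in the pubertal and 3.63, 4.83 and 4.70 FPKM in the prepubertal libraries, without overlap (log2 fold change 0.42, adjusted p = 0.871 from limma, and 0.31 without pubertal replicate 3). ENG, a TGF-beta co-receptor of vessels, had 2.48, 2.77 and 5.45 FPKM against 1.69, 1.66 and 2.43 FPKM. KDR, the main signalling receptor for VEGF-A, had 12.2, 9.62 and 20.5 FPKM against 9.08, 10.2 and 10.5 FPKM, with overlap. Without pubertal replicate 3, 0 of the 18 had an unadjusted p under 0.05 in limma, against 4.03% of all genes. Then 10 were above 0, against 51.3%. The core junction cadherin CDH5 and the receptors TEK and TIE1 had log2 fold changes of 0.10, 0.18 and 0.03, named here after their values were seen. With that library left out these were -0.07, 0.11 and 0.07, so that of CDH5 turned in sign.

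The tight junction and barrier transport list had 17 matched genes of 18. Of these, 0 had an unadjusted p under 0.05 in limma, against 5.16% of all genes. Its median log2 fold change was 0.13, and 0.03 without pubertal replicate 3. SLC38A5, a glutamine transporter, had 6.42, 8.74 and 9.01 FPKM in the pubertal and 4.28, 6.59 and 6.61 FPKM in the prepubertal libraries (log2 fold change 0.42, adjusted p = 0.962 from limma, and 0.34 without pubertal replicate 3). The monocarboxylate carrier SLC16A1 and the junction scaffold TJP1 had log2 fold changes of 0.20 and 0.18 with the same adjusted p, and of 0.14 and 0.15 without that library. The list as a whole summed to between 339 and 386 in pubertal and between 323 and 346 FPKM in prepubertal goats, which overlapped.

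The list of permeable or activated endothelium held genes of unlike level. PLVAP, the diaphragm protein of fenestrated capillaries, had 0.55 to 0.83 FPKM in pubertal and 0.32 to 1.11 FPKM in prepubertal libraries, with overlap, and was singled out after its values were seen. Of the 7 genes tested in this list, 1 had an unadjusted p under 0.05 and a higher pubertal level, against 3.51% of all genes. This was APLN, a peptide made by sprouting endothelium, with 9.38, 7.54 and 7.81 FPKM in the pubertal and 5.33, 5.02 and 7.23 FPKM in the prepubertal libraries (log2 fold change 0.44, adjusted p = 0.868 from limma), and 0.47 without pubertal replicate 3. ANGPT2, which loosens vessels for remodelling, was highest in pubertal replicate 3, at 4.46 FPKM, and had 1.21 to 2.08 FPKM elsewhere. ESM1, a tip cell gene, had a log2 fold change of 0.35 (adjusted p = 0.962), and 0.32 without pubertal replicate 3.

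Of 23 vascular ligands and receptors, all tested, 3 had an unadjusted p under 0.05 and a higher pubertal level, against 3.51% of all genes, and the median log2 fold change was 0.14 with and without pubertal replicate 3. NOTCH3, the Notch receptor of mural cells, had 5.73, 7.21 and 6.34 FPKM in the pubertal and 3.98, 5.07 and 4.61 FPKM in the prepubertal libraries. Its stages did not overlap, pubertal replicate 3 was not its highest library, and its log2 fold change was 0.42 with and without that library (SE 0.13, adjusted p = 0.808 from limma with all 6). FZD4 and WNT7B, a receptor and a ligand of the Wnt signal that keeps the brain barrier, had log2 fold changes of 0.28 and 0.51 (adjusted p = 0.958 each), and of 0.23 and 0.57 without pubertal replicate 3. WNT7B had 1.84, 3.93 and 2.27 FPKM against 1.51, 1.17 and 1.92 FPKM, with overlap. VEGFA, the ligand of FLT1 and KDR, and PDGFB, the ligand of PDGFRB, had log2 fold changes of 0.06 and 0.05. Both turned in sign without pubertal replicate 3, to -0.17 and -0.05. They were named after their values were seen.

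Of 13 pericyte genes listed, 12 matched and 10 were tested. VTN was listed at 0 in all 6 libraries. An unadjusted p under 0.05 and a higher pubertal level was found for NOTCH3, MCAM and GJA4, 3 of 10, against 3.51% of all genes, and the median log2 fold change was 0.17, or 0.07 without pubertal replicate 3. MCAM, an adhesion molecule of mural and endothelial cells, had 37.7, 33.9 and 43.2 FPKM in the pubertal and 30.6, 25.7 and 31.5 FPKM in the prepubertal libraries, without overlap (log2 fold change 0.37, adjusted p = 0.808 from limma, and 0.29 without pubertal replicate 3). GJA4, a connexin of arterial vessels, had 3.32, 3.86 and 3.61 FPKM against 2.58, 1.91 and 3.31 FPKM. The pericyte potassium channel genes ABCC9 and KCNJ8 and the pericyte gene HIGD1B, named after their values were seen, had log2 fold changes of 0.18, 0.14 and 0.04. These were 0.14, 0.08 and -0.08 without pubertal replicate 3, so that of HIGD1B turned in sign.

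The contractile smooth muscle genes had a larger median difference than the pericyte genes. All 13 were tested and all 13 had a log2 fold change above 0, where 49.8% of all genes did, with a median of 0.69. The stages did not overlap, with pubertal higher, in 7 of 13, with and without pubertal replicate 3. The shares of all genes were 5.91% and 8.50%. An unadjusted p under 0.05 was found for TAGLN, MYLK, SMTN and PLN, 4 of 13, against 3.51% of all genes with a higher pubertal level, and none passed after adjustment. TAGLN, an actin-binding protein of smooth muscle, had 19.0, 22.2 and 105 FPKM in the pubertal and 9.79, 11.6 and 12.5 FPKM in the prepubertal libraries. Its stages did not overlap, and its log2 fold change was 1.58 (SE 0.55, adjusted p = 0.870 from limma) and 0.82 without pubertal replicate 3. PLN, which restrains the calcium pump of the sarcoplasmic reticulum, had 11.0, 8.31 and 22.4 FPKM against 4.21, 6.2 and 6.93 FPKM, again without overlap (log2 fold change 1.05, adjusted p = 0.808, and 0.66 without pubertal replicate 3). MYLK, the myosin light chain kinase, had 4.90, 3.86 and 9.51 FPKM against 2.79, 3.46 and 3.22 FPKM.

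ACTG2 and DES, named after their values were seen, showed how far pubertal replicate 3 lay from the others. It had 20.8 FPKM of ACTG2 and 32.4 FPKM of DES, where the other 5 libraries had 0.689 to 1.44 and 2.46 to 4.78 FPKM. Without that library all 13 log2 fold changes were still above 0, against 51.3% of all genes, and the median was 0.35. Then 6 of 13 genes (TAGLN, MYL9, MYLK, ACTG2, DES and PLN) had an unadjusted p under 0.05, against 2.69% of all genes with a higher pubertal level. Without prepubertal replicate 1 there was 1, PLN. There were 8 without pubertal replicate 1 and 7 without pubertal replicate 2. Over all genes, 338, 984 and 761 were higher at that threshold in these 3 settings, against 575 with all 6 libraries. The summed FPKM of the list was 80.9, 81.6 and 279.9 in pubertal replicates 1, 2 and 3, and 51.4 to 65.1 in the prepubertal libraries.

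**Figure D4:**
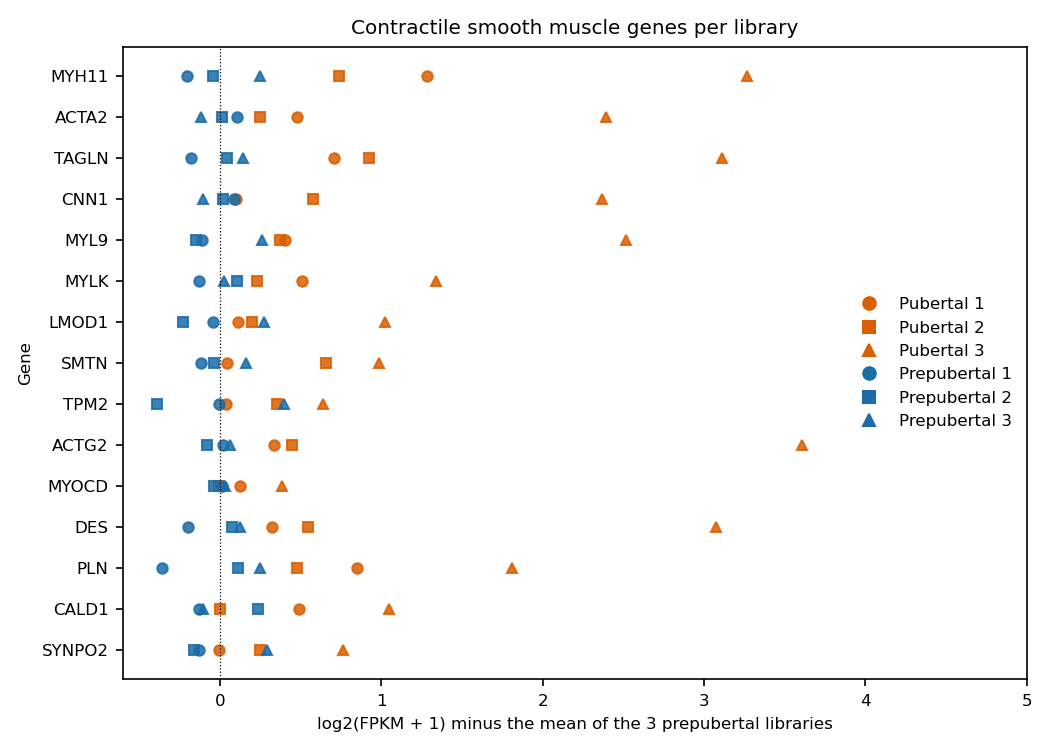
Log2(FPKM + 1) minus the mean of the 3 prepubertal libraries (horizontal axis) for MYH11, ACTA2 and the 13 contractile smooth muscle genes (rows), with 1 point per library, pubertal in orange and prepubertal in blue. The triangle of pubertal replicate 3 is the rightmost in every row. In MYH11, ACTA2 and 7 of the 13 contractile genes, TAGLN among them, the other pubertal libraries also lie right of all prepubertal ones.

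Genes of neighbouring tissues are given beside the smooth muscle genes. Of the 9 matched meningeal fibroblast genes, 4 had an unadjusted p under 0.05 and a higher pubertal level, against 3.51% of all genes, and 8 had a log2 fold change above 0, against 49.8%. The median log2 fold change was 1.08, or 0.32 without pubertal replicate 3. DCN, a matrix proteoglycan, had 48.3, 40.3 and 86.9 FPKM in the pubertal and 16.1, 28.2 and 26.1 FPKM in the prepubertal libraries (log2 fold change 1.24, adjusted p = 0.733 from limma, and 0.92 without pubertal replicate 3). COL1A2 had 46.5, 36.4 and 94.4 FPKM against 12, 25.2 and 25.5 FPKM, and COL1A1 and COL3A1 had log2 fold changes of 1.41 and 1.08, or 0.94 and 0.67 without pubertal replicate 3. In all 4 the stages did not overlap, also without pubertal replicate 3. With and without that library, 5 of 9 genes of the list were higher in pubertal goats without overlap, against 5.91% and 8.50% of all genes. The summed level of the list was 179.9 to 417 FPKM in pubertal and 114 to 155 FPKM in prepubertal libraries. PDGFRB, ACTA2 and the contractile genes are also made by fibroblasts or by the larger vessels of the meninges, and the part of meningeal tissue in their values was not tested.

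The anterior pituitary genes CGA and TSHB also had an unadjusted p under 0.05 and a higher pubertal level, 2 of 6 against 3.51% of all genes. The list summed to 52.8 to 66.0 FPKM in pubertal and 3.75 to 20.9 FPKM in prepubertal libraries. Most of that sum was CGA, with 50.1, 62.5 and 39.4 FPKM against 2.24, 18.0 and 3.32 FPKM. TSHB had 2.46, 2.33 and 4.04 FPKM in the pubertal and 0.724, 1.84 and 0 FPKM in the prepubertal libraries. As in CGA, its stages did not overlap. In GH1, LHB, FSHB and POU1F1 the stages overlapped. GH1 was listed at 0 in all libraries but pubertal replicate 3. LHB, FSHB and POU1F1 were named after their values were seen. LHB had a log2 fold change of -0.03, and -0.13 without pubertal replicate 3, and FSHB and POU1F1 had at most 1.09 and 0.539 FPKM. The 6 choroid plexus genes summed to 331 FPKM in pubertal replicate 3 and to 6.60 to 58.7 FPKM elsewhere. None had an unadjusted p under 0.05 in limma, against 5.16% of all genes. TTR made up most of the 2 highest sums, with 309 FPKM in pubertal replicate 3 and 53.4 FPKM in prepubertal replicate 1. KCNJ13 had 14.4 FPKM in pubertal replicate 3 and 1.43 to 1.86 FPKM elsewhere, whereas KL had 2.70 and 1.07 to 2.68 FPKM. The neuron, astrocyte and microglia lists had medians near or below 0. Their median log2 fold changes were -0.13, -0.02 and 0.00. The summed neuron level was 1099 to 1341 FPKM in pubertal and 1260.4 to 1372 FPKM in prepubertal libraries, with the lowest value in pubertal replicate 3. Of these 3 lists, ALDH1L1 of astrocytes and C1QA of microglia had an unadjusted p under 0.05, both higher in pubertal goats. Each was 1 of 6 in its list, against 3.51% of all genes.

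**Figure D5:**
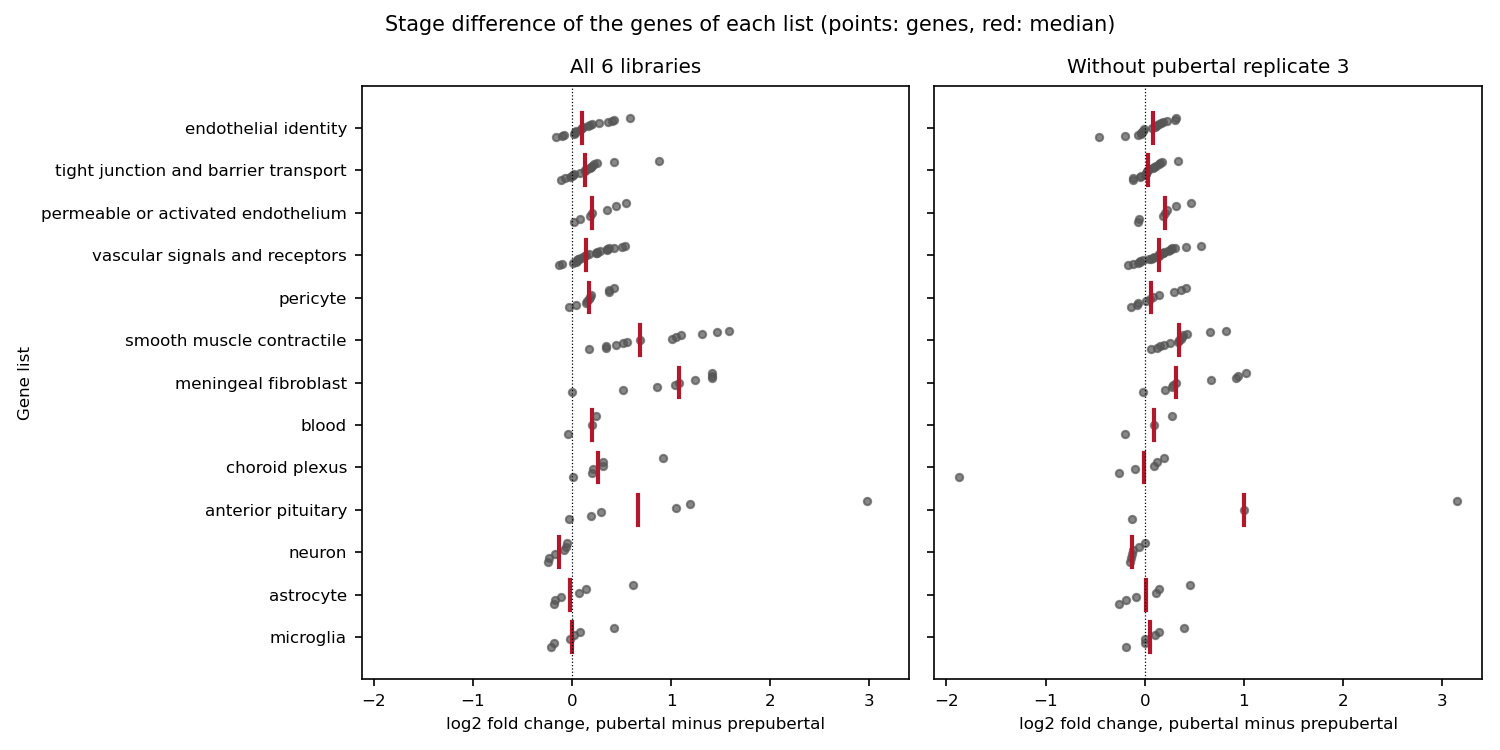
Log2 fold change (horizontal axes, pubertal minus prepubertal) of each tested gene (grey points) by gene list (rows), with the median of the list in red, for all 6 libraries (left) and without pubertal replicate 3 (right). The contractile smooth muscle and meningeal fibroblast medians are 0.69 and 1.08 with all libraries and 0.35 and 0.32 without that library.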

How the data were processed

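Hypothalamic RNA, depleted of ribosomal RNA, was sequenced as strand-specific paired-end libraries from 3 pubertal and 3 prepubertal goats. The authors aligned reads with TopHat and assembled transcripts with Scripture and Cufflinks 2.1.1 (version per the labels), and deposited FPKM per transcript and library. The genome build is not given in the sources used here. The authors' deposited table of group FPKM, fold changes, p-values and q-values (Cuffdiff 2.1.1) was used only for gene identifiers and transcript lengths. The lncRNA tables were not used.

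FPKM was summed by gene. Symbols came from a RefSeq table (ARS1.2), which matched 19083 of 20225 genes (94.4%). Stages were compared by limma 3.58.1 under R 4.3.3 (lmFit, eBayes with trend, two-sided) on log2(FPKM + 1), a scale that understates changes of low genes, over genes with a mean of at least 0.1 FPKM, with Benjamini-Hochberg adjustment over all genes and a threshold of 0.05. Exact permutation tests used scipy 1.17.1. The fit was run on simulated data, where it recovered 77% of genes with a log2 change of 1 and 97% of those with 2. It also called 8 unchanged genes. The simulated noise was independent for each gene, so no library stood apart as pubertal replicate 3 does here. How the fit performs on such a library was not tested. The limma p-values set the stage difference against the spread between libraries of a stage, with the variance of each gene adjusted by that of all genes. With 1 library per goat, differences between goats, dissections and libraries cannot be told apart in that spread.

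The 10 genes and all lists were chosen with earlier results of these data known. Named were the 10 genes, up to 3 genes per list with the smallest unadjusted p, the 3 genes most correlated with PDGFRB and MYH11, and genes said to be named after their values were seen. The rule also named CLDN5 for the correlation, which matched no transcript. Genes that spell out a count, such as MYL9, were named too. TTR, SLC22A8, ALAS2, PPBP and SLC4A1 were named with their values seen. List genes without a match were not analysed here. The alternatives tried were adding 0.1 in place of 1, dropping the minimum, raising it to 1 FPKM, quantile normalization, centring on the median, rescaling over transcripts of at least 300 nt, limma without trend, a replicate block, the most abundant transcript only, and leaving out each library. Counts of list genes under these alternatives, and list values without pubertal replicate 3, were added after seeing the data. Sequences of the genes were not analysed here.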

Additional observations from a re-analysis of the deposited data

How the results depend on the processing

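For the 9 genes, 134 of 135 log2 fold changes under the alternatives kept the sign of the main value, and 0 of 135 passed the adjusted threshold in limma, with adjusted p between 0.292 and 1. The exception was FLT1, at -0.03 without prepubertal replicate 1 and up to 0.17 with another library left out. VWF and MYH11 had an unadjusted p under 0.05 in 15 of 15 alternatives, RGS5 in 14, SLC2A1 in 12 and ACTA2 in 3. The number of the 9 genes with an unadjusted p under 0.05 ran from 2 to 6 with each library left out. The number of all genes past the adjusted threshold ran from 0 to 4 with each library left out, and none of these was among the 9. The higher and lower counts at an unadjusted p under 0.05, 575 and 271, ran from 338 to 984 and from 164 to 1239, with the highest without pubertal replicate 1 and the lowest without prepubertal replicate 1. Rescaling without short transcripts gave 661 higher and 179 lower, quantile normalization 462 and 377, and centring on the median 519 and 316. With each library left out, the count of contractile genes ran from 1 to 8 and that of meningeal fibroblast genes from 3 to 7. The mural minus endothelial level, 0.23 over all libraries, stayed between 0.02 and 0.43, the highest with only the most abundant transcript.

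Same-numbered libraries of both stages did not deviate together over all genes (r of -0.0286, -0.107 and 0.0876 for numbers 1, 2 and 3). Libraries of unlike number had r from -0.128 to 0.17. A pairing that touches only some genes would not show in these values, so they cannot decide whether the numbers pair the goats. With the replicate block, 1 gene passed the adjusted threshold. Then 10 contractile genes had an unadjusted p under 0.05, where 597 of all genes had one with a higher pubertal level. FPKM gives no counting error, so precision rests on 3 goats per stage.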
